A study of Mus musculus with 24 samples.

Results

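Exon-type circular RNAs are transcripts that the deposited table assigns to exons of a host gene and that were above 0 in at least 6 of the 12 longer-RNA libraries. This choice gave 1873 circular RNAs from 1142 host genes, out of 10673 circular RNAs in the table, of which 9208 were of the exon type, 1144 of the intron type and 321 intergenic. The RNA came from the medial frontal cortex of C57BL/6J mice at postnatal day 28. Dnmt3l mice were offspring of a conditional Dnmt3l knock-in line crossed with Emx1-cre mice, and control mice carried Emx1-cre, which acts in the Emx1 lineage of the dorsal forebrain (excitatory neurons and part of the glia). Both genotypes therefore carry the Cre transgene, and cells outside that lineage are not recombined by it. There were 3 libraries each of Dnmt3l males (DM1 to DM3), Dnmt3l females (DF1 to DF3), control males (CM1 to CM3) and control females (CF1 to CF3). Whether each library stands for its own animal is not stated in the labels; p-values here therefore reflect the spread among libraries, which may be partly technical.

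A circular RNA forms when the splice donor at the end of an exon joins the acceptor at the start of the same or an upstream exon, a reaction called back-splicing. The closed ring has no free ends for exonucleases and is usually long-lived, and it competes with linear splicing of the same pre-mRNA. Circular RNAs are abundant in the brain, where they accumulate in neurons and many arise from synaptic genes.

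For 15 distinct back-splice acceptors the sequence could be read, because the start of the circle lies inside a window around an annotated transcript start in RefSeq (GRCm38.p6, the build of the files). All 15 lie directly after the letters AG, the acceptor dinucleotide of introns, searched on the strand of the host gene; AG makes up 7.69% of all neighbouring base pairs in the 32817 windows. The sequences of 5 of the most abundant of these circles are printed to show that the reported coordinates fall on splice sites. Each gives the last intron bases and the first bases of the circularised exon, with the AG in capitals.
Chd9, 8:90932249-90933862, plus strand: ttttgttgttattttcctAGgattctgatg
Atp2b4, 1:133753089-133753749, minus strand: tttttgcatctctattccAGaggcctagcc
Arhgap5, 12:52516079-52519967, plus strand: gttttttttcccctttctAGgaagatgatc
Ica1, 6:8737017-8758458, minus strand: taactgttcctttatttcAGgtttaatata
Fat1, 8:44950196-44953481, plus strand: ttcttcttcttctattacAGgtggccagga
Their mean scores over the 12 libraries were 307 for the Chd9 circle (Chd9 encodes a chromatin remodeler), 171 for that of Atp2b4 (a plasma membrane calcium pump), 122 for Arhgap5 (a GTPase-activating protein), 93.8 for Ica1 and 66.0 for Fat1 (a protocadherin-like adhesion protein). The 2 Arhgap5 members share this acceptor and differ in their downstream end.

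The deposited score is a truncated multiple of the back-splice junction reads, with 1 factor for each library (5.25 to 6.34), so the reads behind it could be recovered. Values above 0 began at 2 reads. Circle junction reads of all types ran from 16642 to 34863 in Dnmt3l libraries and from 26475 to 36573 in controls, beside 22144970 to 26842726 and 27074837 to 32100277 mRNA counts. Dnmt3l mRNA was present at 1179 counts in DF1, at 521 to 609 counts in the other 5 Dnmt3l libraries and at 0 to 3 counts in the controls. Alb, a liver transcript, stood at 32.6 to 47.1 CPM in CM3, CF1 and CF2, at most 0.494 CPM in Dnmt3l libraries and at most 0.196 CPM in the other controls. DF1 stands apart from the other 5 Dnmt3l libraries: it had the highest circle totals of the 6, and mitochondrially encoded genes took 3.73% of its mRNA counts, against 5.57% to 7.30% in the other 5 and 2.63% to 3.59% in controls. Results are given with and without it. Since it was set apart after its circle totals were seen, values without it are descriptions and are given for totals with no test.

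Most members were scarce. The median member had a mean score of 30.6, 239 members exceeded a mean of 100 and 22 exceeded 500. At 5.25 to 6.34 score units per read, single members carry large counting error. Of the 1873 members, 455 were above 0 in all 12 libraries and 289 in exactly 6, at the edge of the rule. The 289 had a median mean score of 14.9, and the 369 exon-type circles just outside the rule, in exactly 5 libraries, one of 11.2. The members held between 80.1% and 84.1% of the exon-type score of a library. A zero does not always mean few reads: 3 members stood at 0 in a single library while the other 11 were above a score of 100 (Tshz2, Dlgap1 and Tmem132d), and such zeros may be circles not listed for that library.

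The distance between the back-splice ends had a median of 13835 bp (quartiles 5052 and 30457 bp, extremes 162 and 192331 bp), introns included. Of the 1142 hosts, 766 gave 1 member, 335 gave 2 to 4, and 41 gave 5 or more, which together held 288 members. Of the hosts, 1113 had an mRNA in the gene table and were tested there. The other 29 were 12 labels that join a pair of overlapping genes and 17 single genes outside the mRNA table, long non-coding hosts such as Cdr1os, Rmst, Ftx, Snhg14 and Pvt1 among them.

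The most members came from R3hdm1, Rere and Dgki, with 14 members each, and Mlip gave 12 and Tasp1 9. Members of 1 host share exon ends. The 14 circles of R3hdm1 (an R3H-domain protein) used 6 distinct starts and 7 distinct ends, and its most abundant circle, 1:128193460-128223641, held 26.2% of the summed mean score. In Rere, a nuclear receptor corepressor of the atrophin family, the leading circle (4:150439343-150510038) held 24.99%, and in Dgki, a diacylglycerol kinase, the leading circle (6:37029763-37058028) held 24.6%. A single circle was more dominant in Tasp1, the protease that cleaves the histone methyltransferase Kmt2a, where 2:140042094-140057499 held 46.7%. None of the members of these 5 hosts was called between genotypes. Of the 14 members of Rere, 11 had log2 changes below 0, as had 11 of 14 in Dgki, 7 of 9 in Tasp1, 7 of 14 in R3hdm1 and 4 of 12 in Mlip. Hosts with many circles therefore held circles on both sides of 0.

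The summed score of all members was 98399, 114408 and 119338 in Dnmt3l males and 157498, 85142 and 79279 in Dnmt3l females, against 128290, 131065 and 133495 in control males and 122548, 132954 and 159966 in control females. All 3 Dnmt3l males lay below the 3 control males. Among Dnmt3l females 2 lay below every control female and DF1 lay within the control range. The mean was 109011 ± 28471 in Dnmt3l and 134720 ± 12999 in controls (SD, n = 6 each), a ratio of 0.809, with p = 0.0758 in an exact two-sided permutation test and 0.202 adjusted over the 8 measures per library tested here. Within each sex the exact test gave p = 0.1 in males and 0.3 in females, and 0.1 is the smallest that 3 against 3 libraries allow. Without DF1 the Dnmt3l mean was 99313 ± 17549 (n = 5), and every remaining Dnmt3l library lay below every control.

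Set against the mRNA counts of the same library, the difference was smaller. Members gave 697, 768 and 789 RPM (junction reads scaled to the mRNA counts of the same library) in Dnmt3l males and 1022, 655 and 536 in Dnmt3l females, against 775, 800 and 803 in control males and 763, 782 and 973 in control females. The groups overlap, and the means of 745 ± 163 in Dnmt3l and 816 ± 78.3 in controls did not separate (SD, n = 6 each, exact permutation p = 0.344, adjusted 0.393). Without DF1 the difference was −127 RPM. With mitochondrially encoded genes left out of the mRNA counts, values ran from 573 to 1062 RPM in Dnmt3l and from 792 to 1003 RPM in controls. Since the number of distinct circles grows with depth, it was also compared at 15522 exon junction reads per library. It was then 2020, 2112 and 2634 in Dnmt3l males and 2978, 2037 and 1823 in Dnmt3l females, against 2553, 2740 and 2621 in control males and 2467, 2276 and 2793 in control females. The means were 2267 ± 441 and 2575 ± 189 (n = 6 each, exact permutation p = 0.149, adjusted 0.231), and without DF1 the difference was −450 circles.

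**Figure D1:**
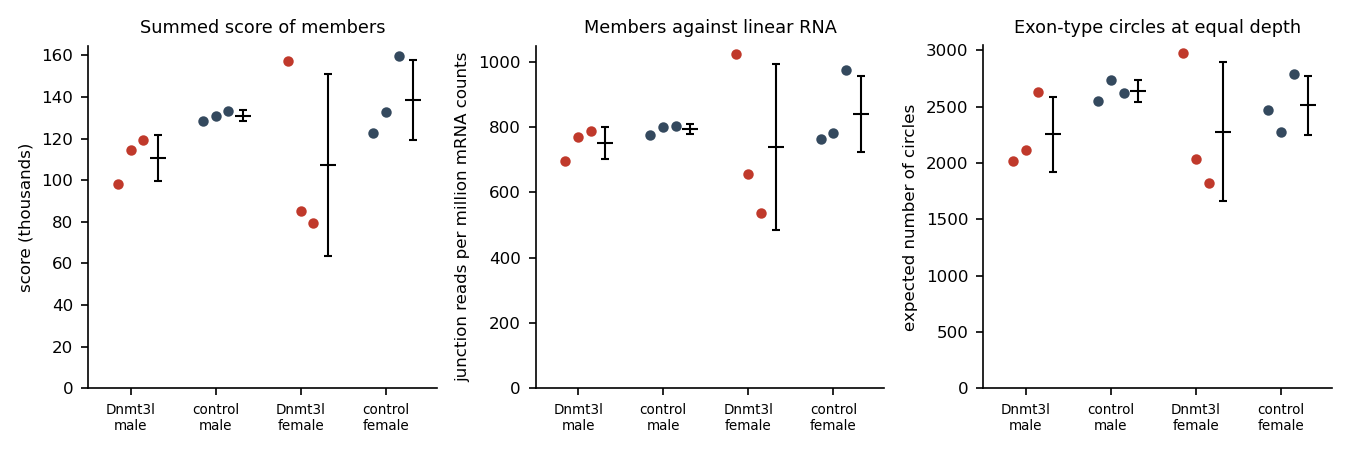
Exon-type circular RNA per library by sex and genotype: summed score of the 1873 members (left), their junction reads scaled to mRNA counts (RPM, middle) and the expected number of exon-type circles at 15522 junction reads (right). Points are libraries and bars are the mean and SD of 3; among Dnmt3l females, DF1 is the highest point in each panel and the other 2 lie below all control females.

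The most abundant member was Cdr1as, the circle at X:61183248-61186174, which covers the Cdr1 gene (X:61183246-61185558 in RefSeq) and is filed under the host Cdr1os, a long non-coding gene. Cdr1as is known to carry a very large number of sites for the microRNA miR-7 and to be confined mainly to neurons. Its score was 6067, 6627 and 7725 in Dnmt3l males and 17613, 5813 and 5598 in Dnmt3l females, against 9625, 11867 and 12610 in control males and 10302, 10137 and 11888 in control females. Except for DF1, which was the highest of all 12, every Dnmt3l library was lower than every control. The mean was 8240.5 ± 4654 in Dnmt3l and 11072 ± 1202 in controls (SD, n = 6 each; ratio 0.744), with p = 0.173 in the exact two-sided permutation test. Without DF1 the Dnmt3l mean was 6366 ± 851. The circle held 5.79% to 6.47% of the member score in Dnmt3l males, 11.2% in DF1 and 6.83% and 7.06% in the other Dnmt3l females, against 7.43% to 9.45% in controls. Without Cdr1as the member score averaged 100770 ± 24337 in Dnmt3l and 123648 ± 12488 in controls, a ratio of 0.815 (n = 6 each, exact permutation p = 0.0758).

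Linear transcripts of Cdr1os stood at 36.4, 29.1 and 28.3 CPM (expected counts scaled to the mRNA counts of the library) in Dnmt3l males and 32.9, 38.9 and 35.9 in Dnmt3l females, against 25.4, 29.9 and 29.8 in control males and 29.3, 26.2 and 24.9 in control females. They were on average higher in Dnmt3l (33.6 ± 4.24 against 27.6 ± 2.35 in controls, n = 6 each, exact permutation p = 0.0216, adjusted 0.173), and this adjusted value misses the threshold. A second circle of the same host, X:61181550-61186174, shares the end of Cdr1as and is far scarcer, with scores of 24 to 119 in Dnmt3l and 44 to 120 in controls.

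The microRNAs miR-7a-5p and miR-7b-5p share their seed, and are printed for that reason with the seed (bases 2 to 8) in capitals, from RefSeq.
mmu-miR-7a-5p: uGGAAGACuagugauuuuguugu
mmu-miR-7b-5p: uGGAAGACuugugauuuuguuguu
In the small RNA libraries, whose columns could be matched to groups but not to the longer-RNA libraries, miR-7a-5p stood at 3581, 2587 and 3650 CPM in the male Dnmt3l columns and at 1988, 5114 and 4690 CPM in the female ones, against 5471, 4968 and 4206 CPM in control males and 3246, 5192 and 3893 CPM in control females. In males the groups did not overlap, and in females they did. Over both sexes the mean was 3602 ± 1192 CPM in Dnmt3l and 4496 ± 856 CPM in controls (n = 6 each, exact permutation p = 0.165). For miR-7b-5p the means were 1233 ± 398 CPM in Dnmt3l and 1375 ± 218 CPM in controls (n = 6 each, exact permutation p = 0.455). Neither difference passed the test. Small RNA counts per column ran from 11397289 to 12378452 in Dnmt3l and from 17784876 to 19608955 in controls. The part of this depth in the microRNA values was not tested.

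**Figure D2:**
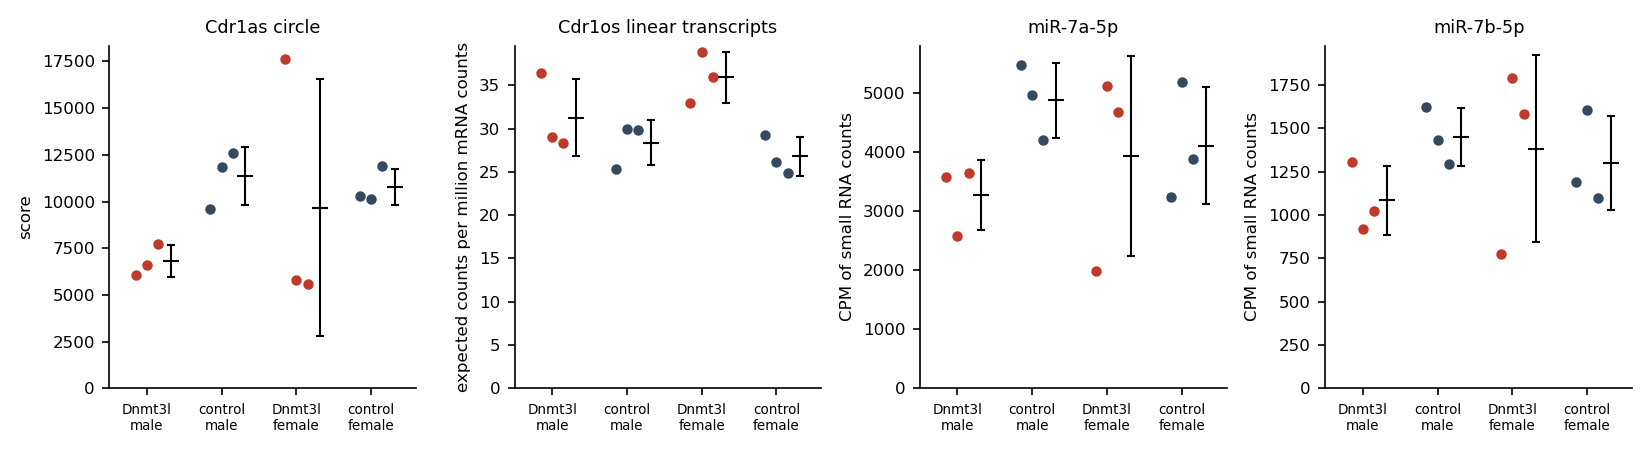
Cdr1as score, linear Cdr1os transcripts (CPM scaled to the mRNA counts), and miR-7a-5p and miR-7b-5p (CPM of the small RNA table) by sex and genotype; points are libraries, bars the mean and SD of 3. The Cdr1as score of DF1, 17613, lies above all other libraries, and the other 5 Dnmt3l libraries lie below all 6 controls.

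Averaged over sexes, 3 members were lower in Dnmt3l and 0 were higher at a Benjamini-Hochberg adjusted p below 0.05 in limma on log2(score + 5), fitted over all 1989 circles of any type above 0 in 6 libraries. The background was 0.151% of the circles called lower and 0.101% called higher, and the 2 circles called higher were of other types. Members made up 1873 of these 1989 circles, so the background is mostly their own share. At an unadjusted p below 0.05 in limma, 164 members were lower and 13 higher, and edgeR on the recovered reads called 2 lower (background 0.101%) and 0 higher. The sizes of single members below refer to the log2(score + 5) scale, which understates changes of scarce circles.

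Spred2, whose protein restrains Ras and MAP kinase signalling, gave the circle with the smallest adjusted p (11:19998120-20008477). Its score was 103, 114 and 125 in Dnmt3l males and 164, 35 and 49 in Dnmt3l females, against 182, 302 and 409 in control males and 247, 298 and 375 in control females. All 6 Dnmt3l libraries were below all 6 controls. The log2 change was −1.69 ± 0.34 (SE, limma adjusted p = 0.00231) and −1.47 in edgeR on the recovered reads (adjusted p = 0.000494). Averaged over sexes, the Spred2 mRNA fell by 0.46 on the log2 scale (SE 0.15, edgeR adjusted p = 0.02005). It changed by −0.77 in males (edgeR adjusted p = 0.0115) and by −0.15 in females (edgeR adjusted p = 0.636). DF1, at 168 CPM, lay above all controls (112 to 150 CPM). The circle changed by −1.28 in males and −2.10 in females. Neither sex difference passed the test (mRNA, edgeR adjusted p = 0.679, circle, limma adjusted p = 0.997). The ratio of circle sum to mRNA changed by −1.12 ± 0.34 without passing the test (limma adjusted p = 0.254). Without CM3, CF1 and CF2, which leaves CF3 as the only control female, the circle was no longer called in limma, at a log2 change of −1.71. In limma without a trend, on all 12 libraries, the adjusted p of the circle was 0.36 at a log2 change of −1.69.

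The circle of Fam135a (1:24085411-24086611) had scores of 0, 0 and 51 in Dnmt3l males and 115, 23 and 0 in Dnmt3l females, against 88, 131 and 125 in control males and 115, 88 and 115 in control females. DF1 lay within the control range and the other 5 Dnmt3l libraries below it, with 3 of the 6 at 0 (log2 change −2.75 ± 0.64, limma adjusted p = 0.0236). The circle of Pms1, a mismatch repair gene (1:53256629-53290423), had scores of 18, 0 and 0 in Dnmt3l males and 103, 23 and 0 in Dnmt3l females, against 100, 62 and 178 in control males and 82, 101 and 98 in control females. Again DF1 was the Dnmt3l library inside the control range (log2 change −2.85 ± 0.67, limma adjusted p = 0.0236). Both calls are lost without CM3, CF1 and CF2, which leaves CF3 as the only control female. The log2 changes were then −2.78 for Fam135a and −2.70 for Pms1. They are also lost in limma without a trend (adjusted p = 0.361 and 0.237), and the Fam135a circle was not called by edgeR (adjusted p = 0.168).

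Strbp, an RNA-binding protein gene of spermatids and brain, followed without being called. Its circle 2:37580673-37647285 had scores of 395, 508 and 513 in Dnmt3l males and 941, 322 and 294 in Dnmt3l females, against 823, 714 and 823 in control males and 851, 1046 and 1109 in control females. The 5 Dnmt3l libraries other than DF1 lay below all controls, at a log2 change of −0.94 ± 0.25 (limma adjusted p = 0.0719).

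On the other side, the 4 members first by p with a positive sign in both sexes were not called. The circle of Cdyl, a chromodomain corepressor (13:35815909-35816575), had scores of 182, 182 and 136 in Dnmt3l males and 139, 113 and 98 in Dnmt3l females, against 105, 0 and 157 in control males and 93, 44 and 51 in control females (log2 change 1.42 ± 0.48, limma adjusted p = 0.288). Hecw1, a HECT ubiquitin ligase gene, gave a circle (13:14278278-14311790) present in all 6 Dnmt3l libraries at 18 to 55 and in a single control, CF3, at 57 (log2 change 2.40 ± 0.89, limma adjusted p = 0.377). The circles of Scamp1, a secretory carrier membrane protein, and Sgip1, an endocytic adaptor, had log2 changes of 1.81 ± 0.68 and 2.03 ± 0.79 (limma adjusted p = 0.381 and 0.393). None of these 4 differences exceeded the spread between libraries by the test.

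**Figure D3:**
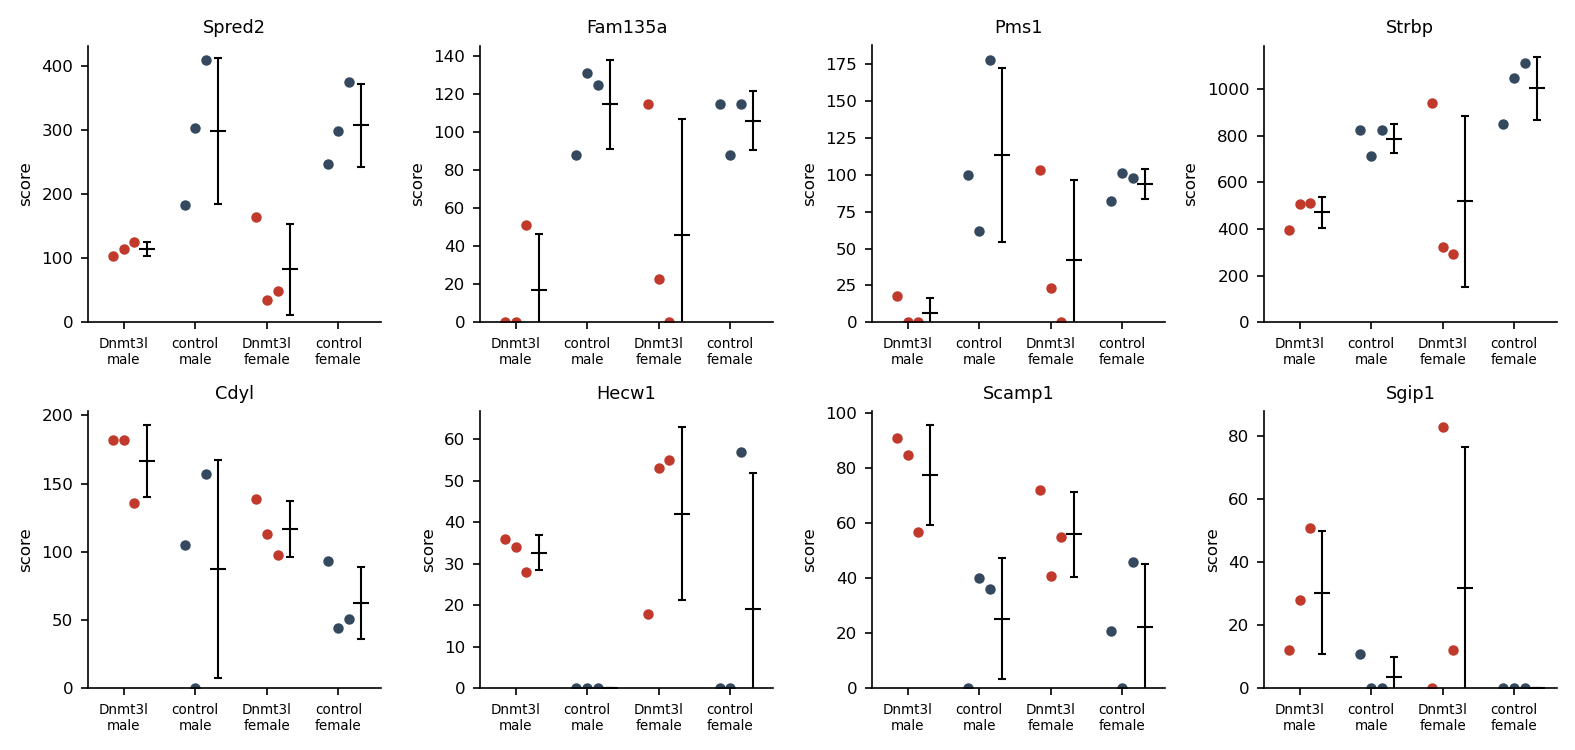
Score of 8 exon-type circles by sex and genotype, named by host: the 4 lower in Dnmt3l with the smallest p (top row) and the 4 higher (bottom row). Points are libraries and bars the mean and SD of 3, cut at 0; Spred2, Fam135a and Pms1 were called, and in Fam135a, Pms1 and Strbp the highest Dnmt3l point is DF1.

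In males 1 member was called, in females 2, and the background of circles called in either direction was 0.151% and 0.201%. The male call was Tshz2, a zinc finger transcription factor (2:169883526-169886459), higher in Dnmt3l males at 414, 656 and 524 against 353, 0 and 414 in control males (log2 change 2.54 ± 0.59, limma adjusted p = 0.0286). That call rests on the 0 of CM2, which stands beside scores of 353 to 656 in the other 11 libraries. The female calls were Spred2, at −2.10 ± 0.48 (limma adjusted p = 0.0231), and a circle of the postsynaptic scaffold gene Dlgap1 (17:70761075-70787209). The Dlgap1 circle scored 583, 292 and 0 in Dnmt3l females against 478, 475 and 670 in control females (log2 change −2.50 ± 0.61, limma adjusted p = 0.0485), and that call rests on the 0 of DF3. No member was called for a difference of the genotype effect between males and females in limma, where 60 were higher and 33 lower at an unadjusted p below 0.05, nor in edgeR, where 37 were higher and 41 lower at an unadjusted p below 0.05.

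For 8 members all 6 Dnmt3l libraries lay below all 6 controls and for 1 all lay above, against a background of 0.402% and 0.151% of the tested circles. Besides Spred2, the 8 lower circles belonged to Kat6b (a histone acetyltransferase), Cdk8 (a Mediator kinase), Stag1 (a cohesin subunit), Hibadh, Egfem1, Ror1 and Sipa1l1. The Cdk8 circle (5:146259505-146271735) stood at 18 to 83 in Dnmt3l and at 109 to 215 in controls, and that of Stag1 (9:100705153-100738142) at 18 to 60 and 80 to 125. The circle that lay above was of Ncam1, a neural cell adhesion gene (9:49506853-49507653), at 196 to 262 in Dnmt3l and 110 to 159 in controls. These were named after their values were seen.

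The circles of Ror1, a Wnt5a receptor gene (4:100407813-100412140), and of Sipa1l1, a synaptic Rap GTPase-activating protein gene (12:82357233-82387712), were listed at 0 in every Dnmt3l library. Values above 0 begin at 2 reads, so a single read in a library would not show. Controls held 40 reads of the Ror1 circle, 3 to 14 each, and 33 of the Sipa1l1 circle, 4 to 7 each. Both entered the 1873 members through the 6 controls alone, so their difference is a description, and no fold is given.

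Beyond single calls, the members as a set lay below 0. Of the 1873 members, 1321 (70.5%) had a log2 change below 0, with a median of −0.37, and the circles of other types had 74 of 116 below 0, with a median of −0.24. How far below depends on the scale: edgeR on the recovered reads, which rescales the libraries to each other, gave a median of −0.14 with 57.9% below 0, quantile scaling −0.075 and centring of the libraries −0.034. The sign and count of small changes therefore depend on the scale. Against the control mean, the medians of the libraries were −0.36, −0.14 and 0.11 in Dnmt3l males and 0.40, −0.53 and −0.73 in Dnmt3l females, and 0.01 to 0.38 in controls. The Dnmt3l libraries thus span a wider range than the controls, with DF1 the highest of all 12. By the number of libraries in which a member was above 0, the medians on the edgeR scale were −0.39 for the 542 members above 0 in 6 or 7 libraries, −0.24 for 431 in 8 or 9, −0.13 for 445 in 10 or 11, and −0.03 for the 455 in all 12. This order is partly set by the grouping, since a circle at 0 in 1 genotype falls among the members of few libraries. In limma those medians were −0.47, −0.46, −0.47 and −0.24. Depth differed between the genotypes in the same direction, as given above, and its part in these medians was not tested.

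**Figure D4:**
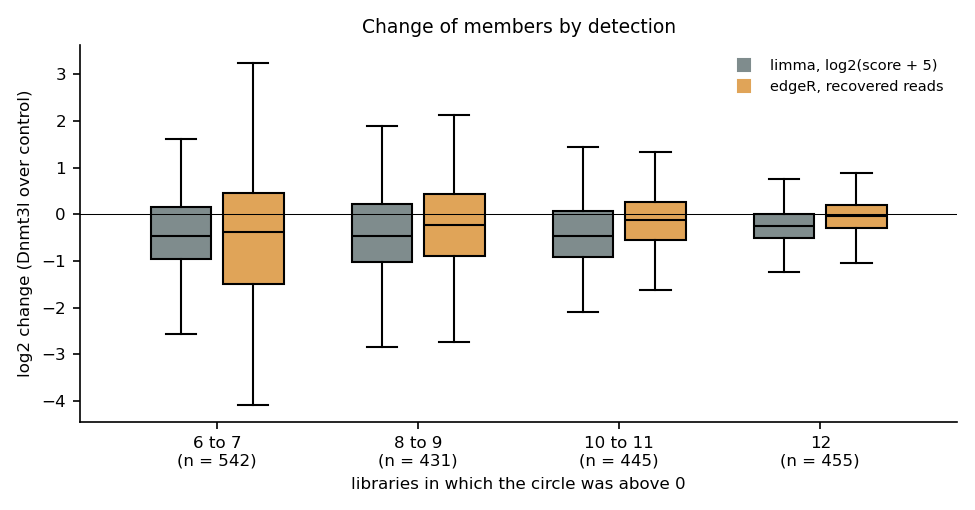
Log2 change (Dnmt3l over control) of the 1873 members grouped by the number of libraries in which the circle was above 0, from limma on log2(score + 5) and from edgeR on the recovered reads. Boxes are quartiles with the median as a line and whiskers to the last value within 1.5 times the box height; the median is −0.24 in limma and −0.03 in edgeR for the 455 members in all 12 libraries, and the grouping itself depends on the zeros of each genotype.

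Leaving out DF1 changed the count of calls. DF1 was set apart after its high circle totals were seen, so leaving it out moves members towards lower values by construction. Calls and adjusted p-values without DF1, for members, host sums and ratios, are therefore descriptions. In limma 29 members were then lower and 0 higher (background 1.56% lower and 0.101% higher), the 3 calls above among them, and leaving out any other single library gave 1 to 3 calls. The median log2 change of the members was −0.52 without DF1 in limma and −0.25 in edgeR. In edgeR without DF1, 8 members were lower (background 0.452%), all of them among the 29, and 2 were higher. The 8 were the circles of Cdr1os (Cdr1as), Strbp, Spred2, Snhg11 (a long non-coding host), Fam135a, Pms1, Insr (the insulin receptor) and Sntg1 (a syntrophin). Cdr1as changed by −0.83 in limma and by −0.51 in edgeR, and Strbp by −1.21 and −0.90; DF1 was the highest Dnmt3l library for both, so these values follow in part from leaving it out. The 2 higher in edgeR came from the adhesion genes Ncam1 (log2 change 1.07, adjusted p = 0.0390) and Cadm1 (0.83, adjusted p = 0.0301). Without DF1 and without CM3, CF1 and CF2, CF3 was the only control female left. The median log2 change of the members was then −0.20 in edgeR.

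Further members among the 29 came from Tulp4 (17:6137211-6139156), Sv2b (a synaptic vesicle glycoprotein), Hnrnpu (a nuclear RNA-binding protein), Fat3, Unc79 and Ssbp2. The Sv2b circle (7:75136298-75149088) scored 328, 410 and 359 in Dnmt3l males and 1196, 507 and 239 in Dnmt3l females, against 570, 577 and 813 in control males and 752, 615 and 953 in control females. DF1 was the highest of all 12 libraries there and the other 5 Dnmt3l libraries lay below all controls, as for Cdr1as.

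Members were also summed per host. The fit held these hosts alone, so the shares of sums called have no outside background. Among the 1142 hosts 1 sum was lower and 0 were higher in limma (0.0876% of the sums), with 124 lower and 5 higher at an unadjusted p below 0.05, and a median of −0.39. In edgeR on the recovered reads 57 were lower and 18 higher at an unadjusted p below 0.05, with a median of −0.092 and 56.3% below 0. The call was Spred2, at −1.60 ± 0.33 (limma adjusted p = 0.00972). Among the hosts with the largest sums were Cdr1os, Tulp4, Kcnt2, Anks1b, Rnf169, Strbp, Tasp1, Gm9762 and Unc79, and these 9 had log2 changes below 0 on the deposited scale, with none called. Kcnt2, Anks1b and Rnf169 turned positive with quantile scaling, centring and edgeR, so their direction depends on the scale. The Tulp4 sum, of a tubby-like gene, was 1625, 1556 and 1786 in Dnmt3l males and 2105, 1429 and 1213 in Dnmt3l females, against 2404, 2461 and 2446 in control males and 2039, 2199 and 2671 in control females. Males did not overlap and DF1 lay among the control females (log2 change −0.56 ± 0.19, limma adjusted p = 0.282). Tulp4 mRNA changed by −0.07 ± 0.05 (edgeR adjusted p = 0.235). Without DF1, 46 sums were lower in limma (4.03% of the sums) and 3 in edgeR, namely Cdr1os, Spred2 and Strbp, while Ncam1 and Cadm1 were higher in edgeR (adjusted p = 0.0222 and 0.00305). Leaving out any other library gave 0 to 5.

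The mRNAs of the hosts moved in both directions. Of 1113 tested hosts, 297 were higher and 332 lower in Dnmt3l (edgeR adjusted p below 0.05), beside a background of 25.2% higher and 26.4% lower over all 15786 genes. The hosts' median log2 change was −0.02. Without CM3, CF1 and CF2, which leaves CF3 as the only control female, fewer hosts were called and a smaller share of them was higher.

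On the deposited scale, most circle sums lay below 0 whichever way the host mRNA had moved. Among the 297 hosts with a higher mRNA, 215 circle sums were below 0 (median −0.33), among the 332 with a lower mRNA 258 were (median −0.47), and among the 484 not called 362 were (median −0.37). Over the 1113 hosts the change of the circle sum and that of the mRNA had a Pearson r of 0.03 and a Spearman correlation of 0.05, a description across genes that share the same libraries. Unc79, which encodes a subunit of the NALCN sodium leak channel complex, shows both at once. Its mRNA averaged 212 CPM and 230 CPM in males and females of the Dnmt3l genotype, against 180 CPM and 182 CPM in control males and females (log2 change 0.29 ± 0.07, edgeR adjusted p = 0.00395). Its circle sum was 859 and 798 in the Dnmt3l groups, against 1120 and 1178 in the control groups (log2 change −0.50 ± 0.22, limma adjusted p = 0.340).

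**Figure D5:**
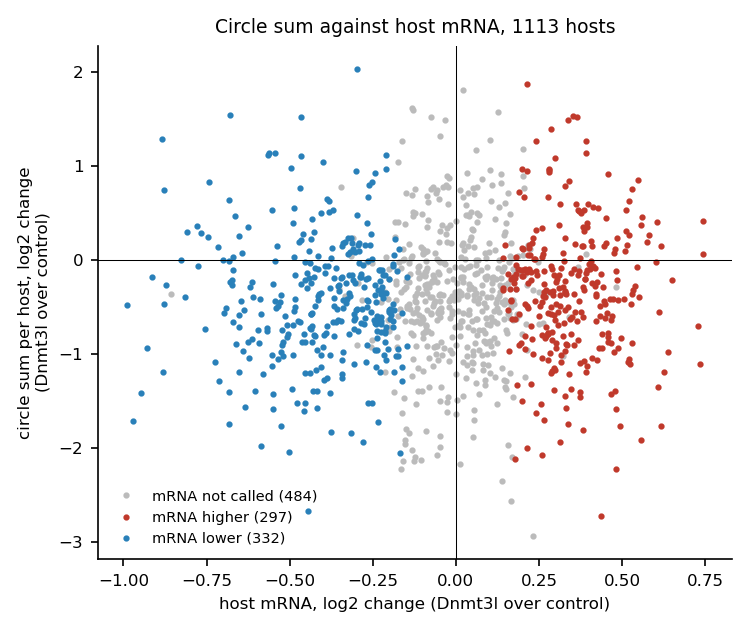
Log2 change (Dnmt3l over control) of the circle sum per host against that of the host mRNA for 1113 hosts; red, blue and grey points are hosts whose mRNA was higher, lower or not called. The points form no slope (Pearson r 0.03), and most lie below 0 on the vertical axis in each colour.

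The ratio of circle sum to host mRNA, taken in each library, had a median log2 change of −0.35, with 793 of 1113 hosts below 0 and a median of −0.030 once libraries were centred. In limma 1 ratio was lower and 0 were higher (0.0898% of the ratios, again without an outside background), with 118 lower and 17 higher at an unadjusted p below 0.05. The call was Ror1, whose circle was listed at 0 in the Dnmt3l libraries while its mRNA was 3.78 and 4.48 CPM in Dnmt3l males and females, against 3.52 and 3.48 CPM in control males and females. Since this circle met the rule for members through the controls alone, its ratio had to differ, and the call is given as a description. In females alone 2 ratios were lower (0.18% of the ratios), Ror1 and Mipep, a mitochondrial peptidase gene. The Mipep circle stood at 0, 0 and 0 in Dnmt3l females against 76, 57 and 103 in control females, while Dnmt3l males at 79, 11 and 62 overlapped control males at 35, 40 and 31. Without DF1, 16 ratios were lower (1.44% of the ratios), Insr, Pms1 and Ror1 among them. The circles of Psmd2, Map3k2, Cds1 and Birc2, also among the 16, were above 0 in DF1 and the 6 controls alone. Those of Grid1 and Lca5, among the 16 too, were above 0 only in DF1 and in controls. For all of these, leaving out DF1 put the whole Dnmt3l group at 0. The Insr value rests on zeros in DF2 and DF3: its circle scored 103, 57 and 205 in Dnmt3l males, which overlapped 104 to 125 in control males. Leaving out another library gave 1 to 3.

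Host genes were also described by groups chosen for their role, each beside the median over all hosts of −0.39 on the deposited scale, the scale of all sums here. Their mRNA counts are edgeR calls, beside the background of 25.2% higher and 26.4% lower over all genes. Of 36 hosts known for brain circles, 31 had members, 102 in all, and 27 of the 31 sums were below 0 (median −0.36), with 0 called. Their mRNAs were higher in 5 and lower in 10 of 29. Among presynaptic genes 15 of 30 had members, and 11 sums were below 0 (median −0.29). Rims2 and Rims1, active zone scaffolds, led with mean sums of 854 and 830 and log2 changes of −0.30 ± 0.22 and −0.10 ± 0.22 (limma adjusted p = 0.621 and 0.890). Of the 15 presynaptic host mRNAs, 8 were higher and 2 lower in edgeR.

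Postsynaptic scaffold and adhesion genes gave 18 hosts with 50 members, and 15 of the 18 sums were below 0 (median −0.35), although 13 of the 18 host mRNAs were higher and 0 lower in edgeR (background 25.2% higher). Homer1, a scaffold of metabotropic glutamate receptors, had a mean circle sum of 595 and a change of −0.30 ± 0.26 (limma adjusted p = 0.668). Of 11 glutamate and GABA receptor hosts, 8 sums were below 0 (median −0.41), and 7 mRNAs were higher and 0 lower. Grin2b, an NMDA receptor subunit, had sums changed by 0.32 ± 0.33 (limma adjusted p = 0.756) and Grm5, a metabotropic receptor, by −0.43 ± 0.29 (limma adjusted p = 0.584). Among 35 chromatin regulator hosts 29 sums were below 0 (median −0.43), with 7 mRNAs higher and 6 lower. Genes of the ubiquitin ligase list, which includes the deubiquitinase gene Usp3, had 20 of 22 sums below 0 (median −0.64). Of their mRNAs, 1 was higher and 8 lower. None of the sums of these groups was called in limma. Over all 1142 hosts, 75% of the sums were below 0 on that scale, against 56.3% in edgeR on the recovered reads.

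Genes known to act in back-splicing or in circle export and turnover were tested at the mRNA level. Of 31 biogenesis genes 3 were higher and 10 lower (edgeR, background 25.2% and 26.4%), with a median of −0.11. The lower ones included Rbfox1 (−0.81 ± 0.14, edgeR adjusted p = 0.000584) and Rbfox3, neuronal splicing factors, Mbnl1 and Mbnl2, whose Muscleblind relative in Drosophila promotes circularisation of its own exon, Ilf2, and Adar, the double-stranded RNA editing enzyme known to oppose circularisation. Rbfox1 mRNA stood at 134 to 154 CPM in Dnmt3l males and at 260, 131 and 154 CPM in Dnmt3l females, against 245 to 312 CPM in controls, and DF1 lay within the control range. The higher ones were Hnrnpm, Ptbp1 and Srsf11. Of 18 export and turnover genes 1 was higher (Tnrc6a, a silencing complex scaffold) and 5 lower, among them G3bp2, a stress granule protein (−0.78 ± 0.13, edgeR adjusted p = 0.000538), and Ythdf3, a reader of N6-methyladenosine. DF1 lay within the control range for both, at 233 CPM for G3bp2 (controls 227 to 249) and 84.1 CPM for Ythdf3 (controls 77.0 to 89.8). In females alone neither was called (edgeR adjusted p = 0.0589 and 0.216). Quaking (Qk), which promotes circle formation in several cell types, changed by 0.17 ± 0.07 (edgeR adjusted p = 0.0621).

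Markers of cell types moved with genotype as well. In edgeR at an adjusted p below 0.05, beside 25.2% higher and 26.4% lower over all genes, higher were 14 of 15 microglial, 15 of 15 endothelial and pericyte, 14 of 15 astrocyte and 7 of 10 oligodendrocyte precursor markers, and the summed astrocyte level was 10117 to 18250 CPM in Dnmt3l and 9052 to 9897 CPM in controls. Microglial markers summed to 383 to 759 CPM in Dnmt3l and 349 to 396 CPM in controls. Interneuron markers were higher in 5 and lower in 7 of 15. Excitatory neuron markers were higher in 3 and lower in 7 of 15, and summed to 6728 to 7998 CPM in Dnmt3l and 5489 to 6579 CPM in controls. Oligodendrocyte markers were higher in 6 and lower in 2 of 12. Within Dnmt3l the lowest astrocyte, microglial and vascular sums were those of DF1, the library with the most exon-type circles detected. DF1 also had the lowest oligodendrocyte precursor, oligodendrocyte and interneuron sums of that genotype (531, 3940 and 1090 CPM). Its excitatory neuron sum, 7172 CPM, lay inside the Dnmt3l range. In these bulk libraries, cell composition and the amount of circular RNA per cell cannot be told apart. The difference in circle totals did not pass the test, and the part of cell composition, depth or scale in it was not tested.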

How the data were processed

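Ribosomal-RNA-depleted, strand-marked libraries and small RNA libraries were made from medial frontal cortex, per the labels' protocols. The circular RNA table holds a score that the authors scaled from junction reads; what it is scaled to and the circular RNA caller are not given in the sources used here. The mRNA and lncRNA tables hold expected counts and FPKM values deposited by the authors, and the small RNA table holds deposited counts. Per the submitters' processing notes, with no role or order given, the tools were HISAT2 2.0.1 and HTSeq 0.6.1, with bedtools 2.17.0, DESeq2, cutadapt 1.9.1 and also bcl2fastq 2.17.1.14, on GRCm38. A further 12 columns of lncRNA FPKM values were not used.

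Junction reads were recovered from the score with a factor per library, and 100% of the values came out as whole reads after truncation. Scores were tested with limma 3.58.1 (trend) on log2(score + 5), with 4 group means over 12 libraries. Expected counts were rounded and tested with edgeR 4.0.16 (quasi-likelihood, TMM) over 15786 genes with at least 0.5 FPKM in 3 libraries. The ratio is log2(circle sum + 5) minus log2(host CPM + 0.5). The threshold was a Benjamini-Hochberg adjusted p of 0.05 over all features of a fit. Values per library were compared with exact two-sided permutation tests. R 4.3.3 and Python 3.11.15 were used, and the code was tested on simulated data. Rows of the mRNA table that name no gene, with 0.533% to 0.601% of the counts, were left out. No sequence was read from chromosome 18.

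Named were the 10 hosts with the largest sums, the circles called with the same sign in both sexes (or the first 4 by p), the called ratios, the 6 hosts with most members, and the most abundant members of each gene list; some that these rules name are not reported here. Others are named as chosen after their values were seen, among them the calls without DF1. The members and lists were chosen with earlier results of these data known. Alternatives were other pseudocounts, scalings, filters and tools, a replicate block, and leaving out libraries.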

Additional observations from a re-analysis of the deposited data

Results flagged for a closer look

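Values were compared with the other libraries of their genotype by Dixon's 95% criterion for 6 values in 44 groups, and 8 stood apart. Chance gives about 1 in 20 for independent, normally distributed values. These groups share libraries, and several hold sparse scores of circles picked by their p, so the 8 cannot be set against that rate. Among Dnmt3l libraries all 3 values were of DF1: its Cdr1as score of 17613 beside 5598 to 7725 in the other 5, its Strbp circle score of 941 beside 294 to 513, and its Pms1 circle score of 103 beside 0 to 23. Among controls, CF3 had a member score of 159966 beside 122548 to 133495, 973 RPM of member reads (scaled to mRNA counts) beside 763 to 803, and a Hecw1 circle score of 57 beside 0 in the other 5. The Pms1 circle score of CM3 was 178 beside 62 to 101, and the Sgip1 circle score of CM1 was 11 beside 0 in the other 5, which is 2 junction reads.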

How the results depend on the processing

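The counts of circles called (3 averaged over sexes, 1 in males, 2 in females, 0 for the interaction) moved with the settings. With a pseudocount of 1 they were 1, 0 and 0 in the first 3 comparisons (median change −0.50), and with 20 they were 6 averaged, 2 in males and 1 for the interaction (median −0.23). Quantile scaling gave 7, 3 and 0 (median −0.075), centring of the libraries 1 averaged and 0 in females (median −0.034), and edgeR on reads 0 in females (median −0.14). Without the 3 controls with liver transcripts, CF3 was the only control female left. None of the 3 calls averaged over sexes was then kept, at a median change of −0.52. Circles above 0 in all 12 libraries gave 5, 0 and 1 (median −0.24), those in at least 3 libraries 7, 2 and 1, and limma without a trend, added after seeing the data, 2 averaged (neither Spred2, Fam135a nor Pms1), 0 in males and 0 in females. Host sums had 0 calls with a pseudocount of 1, 8 with 20 and 3 with quantile scaling, and the Spred2 call was not kept without the liver controls. Called host mRNAs numbered 302 without those controls, against 629 with them. The median ratio was −0.030 after centring. The causes were not tested.

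Leaving out 1 library at a time gave 1 to 29 circles averaged, 0 to 3 in males, 0 to 33 in females and 0 to 2 for the interaction, with medians of −0.52 to −0.27 in limma. EdgeR on reads without DF1, added after seeing the data, gave 10 averaged and 0 in males (median −0.25). Without DF1 and the liver controls, with CF3 the only control female left, the edgeR median was −0.20. Host sums gave 0 to 46 calls, host mRNAs 550 to 805, and ratios 1 to 16 with medians of −0.49 to −0.26. The genotype difference ranged over −35406.5 to −19763 in total score, −127 to −29.7 RPM and −450 to −219 circles at equal depth.

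Directions turned for 3 host sums and 1 microRNA. The Kcnt2, Anks1b and Rnf169 sums changed by 0.051, 0.046 and 0.15 with quantile scaling, by 0.097, 0.056 and 0.19 with centring, and by 0.070, 0.022 and 0.16 in edgeR. In females alone miR-7b-5p differed by 83.3 CPM.

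Same-numbered Dnmt3l and control libraries had correlations of deviations of −0.152 to 0.0562 in circles. No pairing by number was seen, though values of scarce circles cannot exclude it. With a replicate block the calls were 3 averaged, 0 in males, 0 in females, 1 host sum, 603 host mRNAs and 1 ratio. Depth limits single circles: values begin at 2 reads.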
